A study of Mus musculus with 12 samples.

Results

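*Ccl3*, *Ccl4*, *Ccl5*, and *Xcl1* are chemokine genes that activated T cells transcribe. They are 4 of the 26608 genes counted in every library and were chosen by their symbols, with earlier results of these data known. All 4 passed the filter on low counts that left 16035 genes for testing. The cells were CD4+ YFP(FOXP3)- T cells, the CD4+ T cells without the YFP reporter of FOXP3, purified from the spleen and the peripheral (cervical plus inguinal) lymph nodes, pooled per mouse at 14 weeks of age. RNA sequencing gave 12 libraries, 1 per mouse, with 4 mice in each of the groups WT, DKO-moderate, and DKO-severe.

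WT mice were Foxp3Cre WT, and both DKO groups were Foxp3Cre Tet2/3 fl/fl, in which Cre deletes *Tet2* and *Tet3* in cells that have expressed *Foxp3*. All 3 groups therefore carry Foxp3Cre, and the sorted cells of the DKO mice can be a mixture of former FOXP3+ cells, in which both genes were deleted, and cells that were never exposed to Cre, apart from what the study describes as leaky Cre activity. The study assigned DKO mice to the moderate or the severe group by the number of cells in spleen and lymph nodes, so a difference between these 2 groups goes with disease extent and not with genotype. In bulk RNA, fewer cells of a type and less RNA per cell cannot be told apart.

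Chemokines are small secreted proteins that direct the movement of leukocytes through G protein-coupled receptors. *Ccl3* and *Ccl4* encode MIP-1α and MIP-1β, *Ccl5* encodes RANTES, and *Xcl1* encodes lymphotactin. Among their receptors, CCR1 binds CCL3 and CCL5, and XCR1 binds XCL1 and is carried by cross-presenting dendritic cells. *Ccl3* and *Ccl4* are transcribed within hours of T cell receptor stimulation, whereas *Ccl5* is a late gene that memory and effector T cells keep transcribed.

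The second exon of each gene is wholly coding and shows how *Xcl1* differs from the other members. It is printed below 5′ to 3′ on the coding strand from the GENCODE transcripts of GRCm38, the build the files use (mm10), with the cysteine codons in capitals. *Ccl3* (chr11:83648569-83648680, minus strand), *Ccl4* (chr11:83663459-83663573, plus strand), and *Ccl5* (chr11:83529156-83529267, minus strand) hold a pair of adjacent cysteine codons, the CC motif that names their class. *Xcl1* (chr1:164932895-164933009, minus strand) holds a single cysteine codon in this exon, and its protein forms the lone disulfide bond of the C class.
Ccl3: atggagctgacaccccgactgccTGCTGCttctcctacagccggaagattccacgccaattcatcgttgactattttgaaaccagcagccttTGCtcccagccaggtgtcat
Ccl4: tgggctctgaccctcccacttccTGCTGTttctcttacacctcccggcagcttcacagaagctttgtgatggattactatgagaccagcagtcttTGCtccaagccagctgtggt
Ccl5: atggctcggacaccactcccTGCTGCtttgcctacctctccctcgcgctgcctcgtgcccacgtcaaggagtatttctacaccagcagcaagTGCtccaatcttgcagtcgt
Xcl1: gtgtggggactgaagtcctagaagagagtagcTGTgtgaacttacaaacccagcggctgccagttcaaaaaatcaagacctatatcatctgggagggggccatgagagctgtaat

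*Ccl3* and *Ccl4* lie back to back on chromosome 11 with 13.2 kb between their transcription start sites, at chr11:83647844-83649355 and chr11:83662584-83664683, and *Ccl5* lies 119.0 kb from the start of *Ccl3* at chr11:83525778-83530518. *Xcl1* is on chromosome 1 at chr1:164931644-164935527. The aligned coding sequences of *Ccl3* and *Ccl4* were 69.6% identical, the highest value of the 6 pairs, and the other pairs were at 59.7% to 64.7%. The longest identical run between any 2 of the 4 transcripts was 13 bases. Only reads with a single genomic position were counted, so reads that match 2 members equally well were left out.

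Reads on genes ranged from 29254260 to 42133536 per library. Values are CPM, read counts relative to a library's total as scaled by the TMM method of edgeR. *Tet3* was at 167 to 210 CPM in WT, 90.3 to 185 in DKO-moderate, and 87.8 to 102 in DKO-severe, and *Tet2* at 43.3 to 62.2, 34.8 to 57.8, and 56.7 to 65.8 CPM, which is a limited check because reads outside the deleted exons are still counted. The summed level of 7 CD4+ T cell genes was 4016 to 4955 CPM in the 12 libraries. Of the genes of the CD8 lineage, *Cd8a* reached 7.002 CPM, in DKO-severe 2, and *Cd8b1* reached 20.3 CPM, in WT 3. Genes of other cells stood out in WT 3 and in DKO-severe 1 and 2. The summed level of 5 B cell genes was 163, 46.4, and 267 CPM in these 3 libraries and 1.18 to 18.7 CPM in the other 9, and the summed level of 10 neutrophil genes was 2037 and 756 CPM in DKO-severe 1 and 2 against 0.0273 to 22.6 CPM in the other 10. Beside the results that follow, these values are given for the libraries concerned.

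*Ccl3* and *Ccl4* rose in DKO-severe compared to WT. They were low in WT, at means of 1.96 ± 1.68 and 1.64 ± 1.38 CPM (SD, n = 4), and reached 50.3 ± 78.4 and 40.6 ± 64.9 CPM in DKO-severe, where most of the mean came from 1 library. *Xcl1* rose in DKO-moderate compared to WT, from 6.34 ± 2.43 to 14.5 ± 4.997 CPM, a call near the threshold that several fits with 1 library left out did not keep. *Ccl5* had the highest CPM of the 4 in every library and passed the test in no comparison.

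*Ccl3* was at 0.546, 0.710, 4.11, and 2.46 CPM in WT 1 to 4. In DKO-moderate 1 to 4 it was at 12.1, 9.71, 1.96, and 2.99 CPM, and in DKO-severe 1 to 4 at 15.8, 168, 4.67, and 12.9 CPM. All DKO-severe libraries lay above all WT libraries, DKO-severe 2 lay far above the rest, and DKO-moderate was split, with 2 libraries above WT and 2 within its range. The counts behind the extremes were 19 reads in WT 1 and 5510 reads in DKO-severe 2.

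*Ccl4* followed a similar pattern. It was at 0.316, 0.742, 3.33, and 2.19 CPM in WT 1 to 4, at 12.7, 13.3, 3.33, and 3.39 CPM in DKO-moderate 1 to 4, and at 10.5, 138, 3.26, and 10.9 CPM in DKO-severe 1 to 4. DKO-severe 3 lay just below WT 3, so the DKO-severe and WT ranges overlapped, and again DKO-severe 2 stood far above the other libraries. DKO-moderate 1 and 2 were above DKO-severe 1 and 4.

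*Ccl5* was at 21.1, 48.0, 95.1, and 86.4 CPM in WT 1 to 4. It was at 119, 157, 90.6, and 131 CPM in DKO-moderate 1 to 4 and at 65.5, 332, 96.1, and 69.4 CPM in DKO-severe 1 to 4. In DKO-moderate 3 of 4 libraries lay above the WT range. In DKO-severe only replicate 2 lay clearly above it, replicate 3 barely exceeded WT 3, and replicates 1 and 4 were inside the WT range.

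*Xcl1* had a different pattern. It was at 2.82, 7.97, 6.64, and 7.93 CPM in WT 1 to 4, at 17.4, 13, 8.12, and 19.3 CPM in DKO-moderate 1 to 4, and at 7.24, 11.2, 7.14, and 12.9 CPM in DKO-severe 1 to 4. All DKO-moderate libraries lay above all WT libraries, although DKO-moderate 3 and WT 2 nearly met. DKO-severe 2, the library highest in the other 3 members, was within the range of DKO-severe and below 3 of the DKO-moderate libraries.

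**Figure D1:**
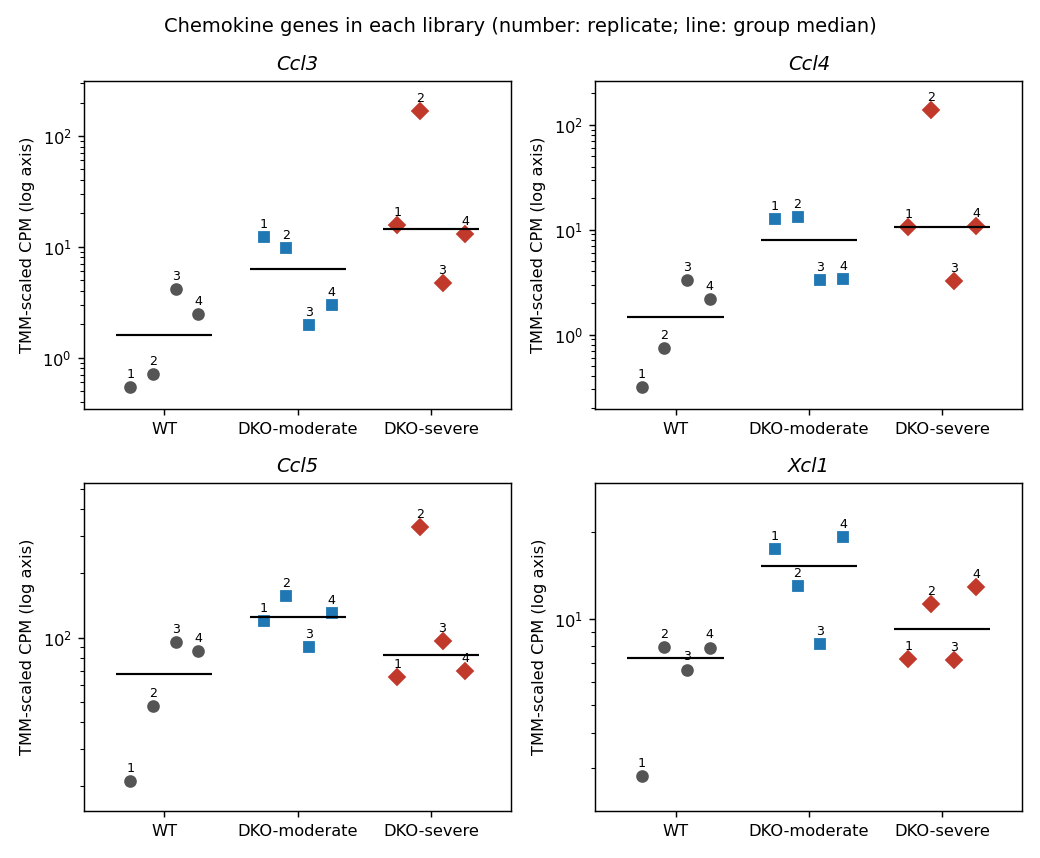
TMM-scaled CPM (log axis) of the 4 chemokine genes in each library, with the replicate number above each point and the group median as a line. *Ccl3*, *Ccl4*, and *Ccl5* are highest in DKO-severe 2, at 168, 138, and 332 CPM, whereas *Xcl1* is highest in DKO-moderate 4, at 19.3 CPM.

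Levels can be compared between genes only per length, here as CPM per kb of annotated exon (766 bases for *Ccl3*, 660 for *Ccl4*, 960 for *Ccl5* including a transcript that retains an intron, and 523 for *Xcl1*). In WT, *Ccl5* led with a median of 69.99 CPM per kb, followed by *Xcl1* at 13.9, *Ccl4* at 2.22, and *Ccl3* at 2.07. The last 2 did not differ beyond their spread. Whether the retained intron was counted is not known, and on the 532 bases of the *Ccl5* messenger transcript alone every *Ccl5* value per kb would be higher, by the ratio of 960 to 532, with *Ccl5* still first. In DKO-moderate the order was the same, with medians of 130, 29.1, 12.2, and 8.29 CPM per kb. In DKO-severe, *Ccl5* was at 86.2 CPM per kb and *Ccl3*, *Xcl1*, and *Ccl4* lay close together at 18.7, 17.6, and 16.2, less than the spread over their libraries.

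The share of *Ccl5* in the summed CPM of the 4 genes was 83.6% to 87.3% in WT, 73.9% to 87.1% in DKO-moderate, and 51.2% to 86.4% in DKO-severe. In DKO-severe 2, *Ccl3* made up 25.9% and *Ccl4* 21.2% of the sum, against at most 3.76% and 3.05% in WT. The *Xcl1* share was lowest in that library, at 1.73%.

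*Ccl3* and *Ccl4* were nearly proportional. Per exon length, there were 1.49, 0.824, 1.06, and 0.969 *Ccl3* reads to each *Ccl4* read in WT 1 to 4, and the first of these values rests on 19 and 11 reads. The ratio was 0.825, 0.627, 0.508, and 0.761 in DKO-moderate 1 to 4 and 1.29, 1.05, 1.23, and 1.02 in DKO-severe 1 to 4. The ratio was thus below 1 in every DKO-moderate library and above 1 in every DKO-severe library, although barely in DKO-severe 2 and 4. Its position relative to 1 depends on the exon lengths used, so which gene was more abundant there is not settled. This ratio, examined after its values had been seen, was not tested. DKO-severe 2 was not set apart by it, although both of its levels were far above those of the other libraries.

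**Figure D2:**
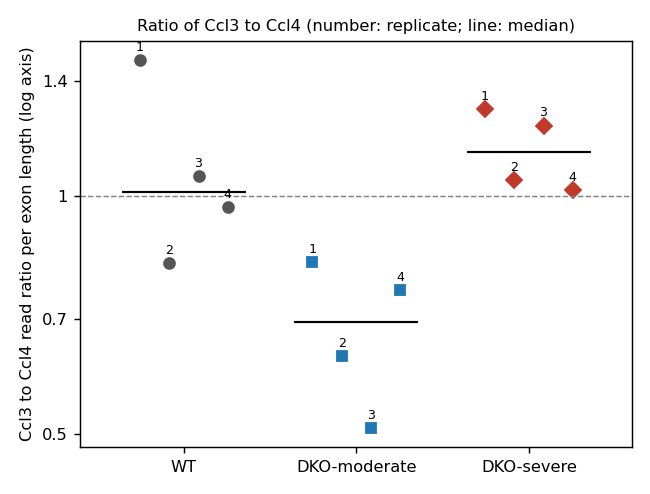
Ratio of *Ccl3* to *Ccl4* reads per exon length (log axis) in each library, with replicate numbers and group medians as lines. The dashed line marks a ratio of 1. All DKO-moderate points are below 1 (0.508 to 0.825) and all DKO-severe points above it (1.02 to 1.29), with WT on both sides (0.824 to 1.49).

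Over the 12 libraries, log2 CPM of *Ccl3* and *Ccl4* had a Pearson r of 0.981, and after the group means were subtracted r was 0.987. For *Ccl5* with *Ccl4* these values were 0.848 and 0.837, and with *Ccl3* 0.778 and 0.803. *Xcl1* was least like the others, with r of 0.494 to 0.705 over the libraries. These correlations describe 12 libraries that share depth, composition, and, for DKO-severe 2, 1 extreme point.

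The comparison of DKO-severe with WT asks how the chemokine genes differ in the DKO mice with the larger number of cells in spleen and lymph nodes. In edgeR's quasi-likelihood test, *Ccl3* was higher by 4.67 ± 1.17 on the log2 scale (SE, 95% interval 2.12 to 7.23, edgeR adjusted p = 0.00553) and *Ccl4* by 4.62 ± 1.19 (2.03 to 7.20, edgeR adjusted p = 0.00638). The difference of *Ccl5* was 1.17 ± 0.55 (-0.02 to 2.35, edgeR adjusted p = 0.0902) and that of *Xcl1* was 0.60 ± 0.35 (-0.16 to 1.37, edgeR adjusted p = 0.165). Thus 2 of 4 members were called higher, where 26.6% of all tested genes were called higher and 25.9% lower. The median log2 fold change was 2.89 over the 4 members and -0.01 over all tested genes.

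DKO-severe 2 set the size of these changes. Without it, *Ccl3* was higher by 2.52 ± 0.79 (edgeR adjusted p = 0.0201) and *Ccl4* by 2.34 ± 0.77 (edgeR adjusted p = 0.0260), and both calls stood. The difference of *Ccl5* was then 0.32 ± 0.40 (edgeR adjusted p = 0.526). In the exact permutation test on CPM, two-sided, *Ccl3* gave p = 0.0286, the smallest that 4 against 4 libraries allow, and *Ccl4* p = 0.0571, both 0.137 after adjustment over the 12 tests of the 4 genes. In that test *Ccl5* gave exact p = 0.257 and *Xcl1* exact p = 0.229.

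Genes of other cells were measured beside these values. Of the listed genes, 9 of 10 of neutrophils, 3 of 9 of monocytes and macrophages, and 0 of 5 of B cells were called higher in this comparison, and 0 lower. Of all tested genes, 26.6% were called higher and 25.9% lower. The neutrophil genes summed to 0.0273 to 3.97 CPM in WT and 9.98 to 2037 CPM in DKO-severe, the B cell genes to 1.18 to 163 and 15.5 to 267 CPM, and the monocyte and macrophage genes to 4.91 to 186 and 71.1 to 383 CPM. *Ly6g* and *Elane*, defining genes of neutrophils and their precursors, were the 2 of the 10 neutrophil genes with 0 reads in WT. The others had reads there, most of all *Csf3r* with 82. DKO-severe 1 had the highest neutrophil sum, 2037 CPM, with *Ccl3* at 15.8 CPM, close to the 12.9 CPM of DKO-severe 4, whose neutrophil sum was 9.98 CPM. WT 3, with a B cell sum of 163 CPM, had the highest *Ccl3* of WT at 4.11 CPM. DKO-severe 2 had the highest NK cell sum of the series, 120 CPM, of which *Eomes* was 99.4. This sum was 24.1 to 36.3 CPM in the other DKO-severe libraries and 15.9 to 29.5 CPM in WT. T cells also transcribe *Eomes*. The other genes of this list were divided over the DKO-severe libraries. *Gzma*, *Klri2*, *Klre1*, and *Klra9* were highest of the group in DKO-severe 2, at 11.3, 4.72, 2.68, and 0.944 CPM. The NK receptor gene *Ncr1* was highest in DKO-severe 1, at 6.07 CPM, against 1.005 CPM in DKO-severe 2. *Klra4* and *Klra8* were highest of the group in DKO-severe 3, at 0.333 and 0.0714 CPM. Of the 8 genes of the NK cell list *Klri2* was called higher (2.46, edgeR adjusted p = 0.00413). DKO-severe 2 also had the highest *Cd8a*, 7.002 CPM, with *Cd8b1* at 6.15 CPM. With a term for these 2 CD8 genes *Ccl3* was higher by 5.13 (edgeR adjusted p = 0.000638) and *Ccl4* by 5.03 (edgeR adjusted p = 0.000923). *Cd8b1* was at 16.6 to 20.3 CPM in WT and at most 6.15 CPM in DKO-severe, so this fit cannot tell its part from that of the group. The part of NK cells was not tested. With terms for the neutrophil and B cell genes in the fit, *Ccl3* was higher by 2.702 (edgeR adjusted p = 0.269) and *Ccl4* by 2.54 (edgeR adjusted p = 0.309), and neither passed. The neutrophil sums of WT and DKO-severe did not overlap, so this fit cannot tell the part of these genes from that of the group. With WT 3 and DKO-severe 1 and 2 left out together, an alternative chosen after seeing the data, both passed at 2.82 (edgeR adjusted p = 0.0265) and 2.701 (edgeR adjusted p = 0.0325).

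**Figure D3:**
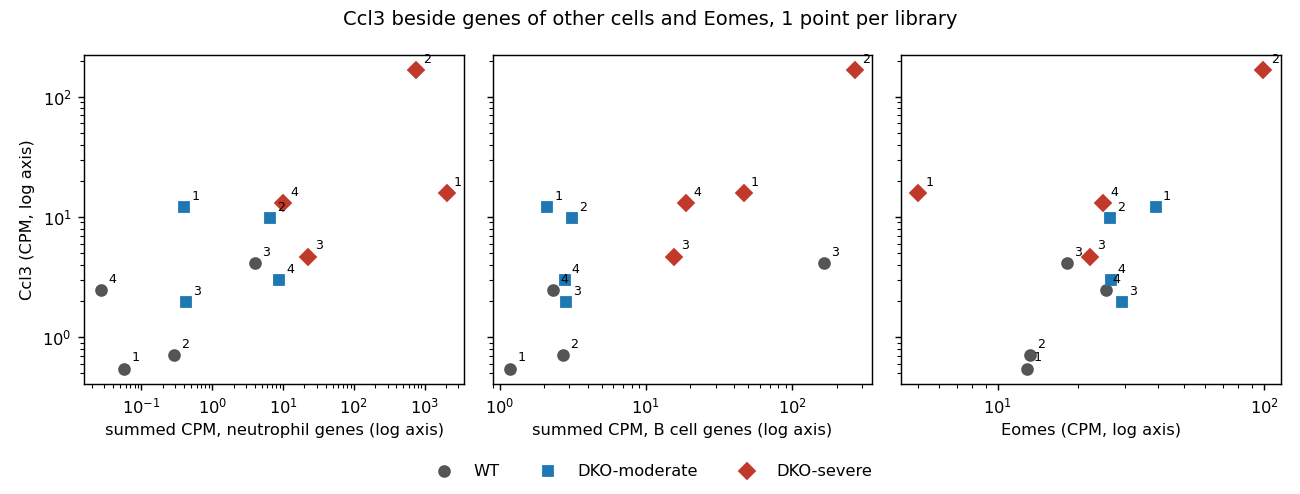
*Ccl3* (CPM, log axis) against the summed CPM of 10 neutrophil genes, the summed CPM of 5 B cell genes, and the CPM of *Eomes* (log axes), 1 numbered point per library, coloured by group. DKO-severe 2 is highest in *Ccl3*, B cell genes, and *Eomes* (168, 267, and 99.4 CPM), whereas the highest neutrophil sum, 2037 CPM, is in DKO-severe 1, with *Ccl3* at 15.8 CPM.

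The comparison of DKO-moderate with WT asks the same of the DKO mice with the smaller number of cells in spleen and lymph nodes. *Xcl1* was higher by 1.19 ± 0.35 on the log2 scale (95% interval 0.42 to 1.96, edgeR adjusted p = 0.0370). The differences of *Ccl3* (1.77 ± 1.07, interval -0.57 to 4.10, edgeR adjusted p = 0.278), *Ccl4* (2.30 ± 1.10, interval -0.09 to 4.70, edgeR adjusted p = 0.169), and *Ccl5* (0.99 ± 0.54, interval -0.19 to 2.17, edgeR adjusted p = 0.230) did not pass. Thus 1 of 4 members was called higher, where 12.3% of all tested genes were called higher and 4.74% lower, and the median log2 fold change was 1.48 over the members and 0.00 over all tested genes.

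The *Xcl1* call was close to the threshold. It was lost when WT 1 (0.95, edgeR adjusted p = 0.0759), WT 2 (1.32, 0.0575), WT 3 (1.21, 0.0645), WT 4 (1.32, 0.0511), DKO-moderate 1 (1.09, 0.0728), DKO-moderate 2 (1.24, 0.0653), or DKO-moderate 4 (1.02, 0.0929) was left out, each in edgeR with fewer libraries. Nor did it pass in limma voom (0.97, adjusted p = 0.0705) or in edgeR with the neutrophil and B cell terms (1.27, adjusted p = 0.0908). The exact permutation test on CPM gave p = 0.0286 for *Xcl1*, the smallest possible, and 0.137 after adjustment over the 12 tests. It gave exact p = 0.0571 for *Ccl4* and for *Ccl5* and exact p = 0.143 for *Ccl3*. Transcripts of Y-linked genes were near 0 in 1 WT, 2 DKO-moderate, and 1 DKO-severe library, and with a term for them *Xcl1* was higher by 1.15 (edgeR adjusted p = 0.0632).

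Genes of other T cells and NK cells were also measured beside these values. *Cd8a* was at 0.0795 to 0.126 CPM in DKO-moderate and at 0.201 to 6.47 CPM in WT, and *Cd8b1* at 3.05 to 8.42 and 16.6 to 20.3 CPM. With a term for *Cd8a* and *Cd8b1* the *Xcl1* difference was 1.13 (edgeR adjusted p = 0.118), and *Ccl3* and *Ccl4* passed at 3.53 (edgeR adjusted p = 0.0287) and 4.03 (edgeR adjusted p = 0.0209). Neither *Cd8a* nor *Cd8b1* overlapped between DKO-moderate and WT, so this fit cannot tell their part from that of the group. Genes of NK cells summed to 37.8 to 55.4 CPM in DKO-moderate and 15.9 to 29.5 CPM in WT. *Eomes*, which T cells also transcribe, made up 26.4 to 39.1 CPM of it in DKO-moderate and 12.8 to 25.4 CPM in WT, and *Gzma* 6.11 to 25.5 and 1.26 to 5.78 CPM. Of the 8 NK cell genes *Gzma* was called higher (2.10, edgeR adjusted p = 0.0367), where 12.3% of all tested genes were. The other 7 were not called, among them the NK receptor gene *Ncr1*, at 0.0745 to 0.977 CPM in DKO-moderate and 0.0287 to 0.891 CPM in WT. The part of NK cells in the *Xcl1* values was not tested.

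Between DKO-severe and DKO-moderate, mice of the same genotype that differ in disease extent, none of the 4 genes passed edgeR's test at the adjusted threshold. The background was 9.41% called higher and 10.7% lower, and at an unadjusted p under 0.05 edgeR gave 2, *Ccl3* and *Ccl4*. *Ccl3* was higher by 2.91 ± 1.07 (95% interval 0.59 to 5.23, edgeR adjusted p = 0.0726), and DESeq2 called it at 2.99 (DESeq2 adjusted p = 0.0246), whereas limma voom called none of the 4. *Ccl4* was higher by 2.31 ± 1.05 (0.02 to 4.60, edgeR adjusted p = 0.133), and the difference was 0.18 ± 0.54 for *Ccl5* (-0.99 to 1.35, edgeR adjusted p = 0.840) and -0.59 ± 0.35 for *Xcl1* (-1.35 to 0.17, edgeR adjusted p = 0.237). Without DKO-severe 2 the values were 0.76 for *Ccl3*, 0.04 for *Ccl4*, -0.66 for *Ccl5*, and -0.63 for *Xcl1*. The intervals of *Ccl3* and *Ccl4* are wide, and *Xcl1* was higher in DKO-moderate than in DKO-severe without passing. Exact permutation p-values were 0.143, 0.629, 0.971, and 0.114 in the same order of genes.

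**Figure D4:**
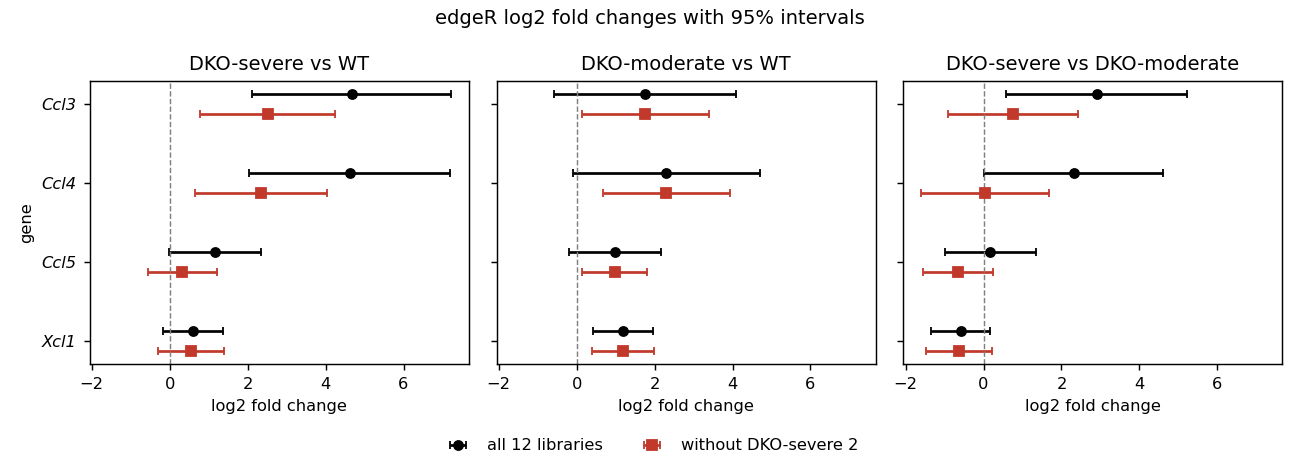
edgeR log2 fold changes (points) with 95% intervals (bars) of the 4 genes in the 3 comparisons, from all 12 libraries (black) and without DKO-severe 2 (red). In DKO-severe vs WT the values of *Ccl3* and *Ccl4* move from 4.67 and 4.62 to 2.52 and 2.34, and those of *Xcl1* stay near 0.60.

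The receptors of these chemokines were measured in the same cells. Of 5 receptor genes, 4 could be tested, and in DKO-severe compared to WT 2 were called higher and 0 lower, with a median log2 fold change of 2.5, where 26.6% of all tested genes were called higher and 25.9% lower. *Ccr1*, a receptor of CCL3 and CCL5, was at 0, 0, 0.345, and 0.109 CPM in WT 1 to 4, and at 0.671 to 1.10 CPM in DKO-moderate. In DKO-severe 1 to 4 it was at 15.1, 12.8, 5.31, and 3.45 CPM. The 3 groups did not overlap. Its difference was 6.27 ± 0.91 in DKO-severe and 2.82 ± 0.84 in DKO-moderate, each against WT (edgeR adjusted p = 0.000148 and 0.0380). In DKO-moderate the call was lost without WT 1, 2, or 4 or DKO-moderate 1, 2, or 4 (2.41 to 2.85, edgeR adjusted p = 0.0532 to 0.0859). Neutrophils and monocytes also transcribe *Ccr1*, and its 2 highest libraries, DKO-severe 1 and 2, had neutrophil sums of 2037 and 756 CPM.

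*Ccbp2*, also named *Ackr2*, encodes a scavenger receptor that removes CC chemokines. It was at 0 to 0.316 CPM in WT and 0.325 to 1.65 CPM in DKO-severe and was called higher at 3.18 (edgeR adjusted p = 0.0366), a call that was lost without WT 1, 2, or 4 or DKO-severe 2, 3, or 4 (2.76 to 3.26, edgeR adjusted p = 0.0533 to 0.0900). *Xcr1*, the receptor of XCL1, was at 0.0238 to 0.742 CPM in the 12 libraries.

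*Srgn* encodes serglycin, the proteoglycan that holds chemokines and granzymes in secretory granules. Its range was 246 to 295 CPM in WT and 499 to 853 CPM in DKO-moderate, and DKO-severe reached 817 to 1081 CPM. It was higher by 1.77 ± 0.18 in DKO-severe and by 1.23 ± 0.17 in DKO-moderate than in WT (edgeR adjusted p = 1.5e-05 and 0.000848), with no overlap with WT. *Dpp4*, the peptidase that trims CCL5, was at 79.7 to 156 CPM over all libraries and was called in none of the 3 comparisons by edgeR.

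Among 10 genes of transcriptional regulators, 4 were called higher and 1 lower in DKO-severe, and 2 higher and 1 lower in DKO-moderate, compared to WT. Of all tested genes, 26.6% and 25.9% were called higher and lower in DKO-severe and 12.3% and 4.74% in DKO-moderate. *Klf13*, known as the late factor that drives *Ccl5* in T cells, was the gene that fell. It was at 466 to 516 CPM in WT, 256 to 381 in DKO-moderate, and 199 to 240 in DKO-severe, and the 3 groups did not overlap. It fell by 1.10 ± 0.12 in DKO-severe and by 0.62 ± 0.12 in DKO-moderate compared to WT (edgeR adjusted p = 2.2e-05 and 0.00456).

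*Bhlhe40*, a regulator of cytokine genes in T cells, was at 19.0 to 46.2 CPM in WT, 90.5 to 250 in DKO-moderate, and 212 to 773 in DKO-severe, where the lowest value was in DKO-severe 2. It rose by 3.82 ± 0.45 in DKO-severe and 2.13 ± 0.42 in DKO-moderate (edgeR adjusted p = 3.9e-05 and 0.00543). *Nfkb1*, which encodes an NF-kappaB subunit, was at 282 to 335 CPM in WT, 369 to 423 CPM in DKO-moderate, and 468 to 861 CPM in DKO-severe. It rose by 1.22 ± 0.16 in DKO-severe compared to WT (edgeR adjusted p = 6.9e-05), and DKO-severe 2 was again the lowest library of its group. *Nfatc1*, a factor activated by T cell receptor signalling, was at 145 to 230 CPM in WT and 284 to 395 CPM over both DKO groups, and rose by 0.96 in DKO-severe and 0.89 in DKO-moderate (edgeR adjusted p = 0.000139 and 0.00134). *Zeb2*, a factor of terminal effector T cells that myeloid cells also transcribe, was at 0.718 to 8.31 CPM in WT and 12.3 to 18.6 CPM in DKO-severe and rose by 2.15 (edgeR adjusted p = 0.00784). The T-box factor genes *Tbx21* (11.4 to 43.9 CPM over all libraries) and *Eomes* did not pass, with edgeR adjusted p = 0.345 and 0.148 in DKO-severe compared to WT.

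*Eomes* was at 5.03, 99.4, 22.2, and 24.8 CPM in DKO-severe 1 to 4. The library with the highest *Ccl3*, *Ccl4*, and *Ccl5* therefore also had the highest *Eomes* of the series, and the other 11 libraries were at 5.03 to 39.1 CPM. Without DKO-severe 1, *Eomes* was called higher than in WT at 1.49 (edgeR adjusted p = 0.0211).

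Of 9 genes of type 1 cytokines and cytotoxic granules, 3 were called higher in DKO-severe and 4 in DKO-moderate, and 0 lower in either, compared to WT, beside 26.6% and 12.3% of all tested genes called higher. *Gzmb*, encoding granzyme B, was at 1.19 to 3.45 CPM in WT, 6.21 to 36.2 in DKO-moderate, and 36.6, 129, 97.8, and 25.0 CPM in DKO-severe 1 to 4. It rose by 5.03 ± 0.70 and 3.10 ± 0.65 (edgeR adjusted p = 0.000109 and 0.00731), and the call in DKO-moderate was lost in limma voom (2.51, adjusted p = 0.0730). *Nkg7*, a granule membrane gene of cytotoxic lymphocytes, was at 22.8 to 49.2 CPM in WT, 86.0 to 169 in DKO-moderate, and 88.1, 277, 74.4, and 86.2 in DKO-severe 1 to 4. It rose by 1.78 ± 0.42 and 1.64 ± 0.42 (edgeR adjusted p = 0.00377 and 0.0186), and the latter call was lost without WT 1 (1.46, edgeR adjusted p = 0.0604) or WT 2 (1.58, 0.0582).

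The remaining genes called were *Csf2*, *Gzma*, and *Il2*. *Csf2*, encoding GM-CSF, was at 0.115 to 0.488 CPM in WT and at 1.59, 0.335, 1.79, and 1.82 CPM in DKO-severe 1 to 4 and rose by 1.99 (edgeR adjusted p = 0.0142). DKO-severe 2 was within the WT range of this gene. *Gzma*, encoding granzyme A, rose by 2.10 in DKO-moderate (edgeR adjusted p = 0.0367), with 25.5 CPM in DKO-moderate 2. The *Gzma* call was lost without WT 1, 2, or 4, DKO-moderate 2, or DKO-severe 3 (1.35 to 2.10, edgeR adjusted p = 0.0516 to 0.135). *Il2* rose by 0.88 in DKO-moderate (edgeR adjusted p = 0.0479), and leaving out any library but DKO-moderate 2 or DKO-severe 1 ended the call (0.70 to 0.96, edgeR adjusted p = 0.0530 to 0.119).

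*Ifng*, the type 1 cytokine often made together with CCL3 to CCL5, was not called higher in either DKO group compared to WT. It was at 14.4 to 29.5 CPM in WT, 34.8, 24.4, 16.8, and 17.9 in DKO-moderate 1 to 4, and 4.61, 21.5, 12.7, and 14.5 in DKO-severe 1 to 4. Within the DKO groups *Ifng* was highest in DKO-moderate 1 and 2 and in DKO-severe 2, as *Ccl3* and *Ccl4* were. In DKO-severe 1, however, *Ifng* was at its lowest. Its difference to WT was -0.79 in DKO-severe (edgeR adjusted p = 0.104), and without DKO-severe 2 it was -1.08 (edgeR adjusted p = 0.0365).

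**Figure D5:**
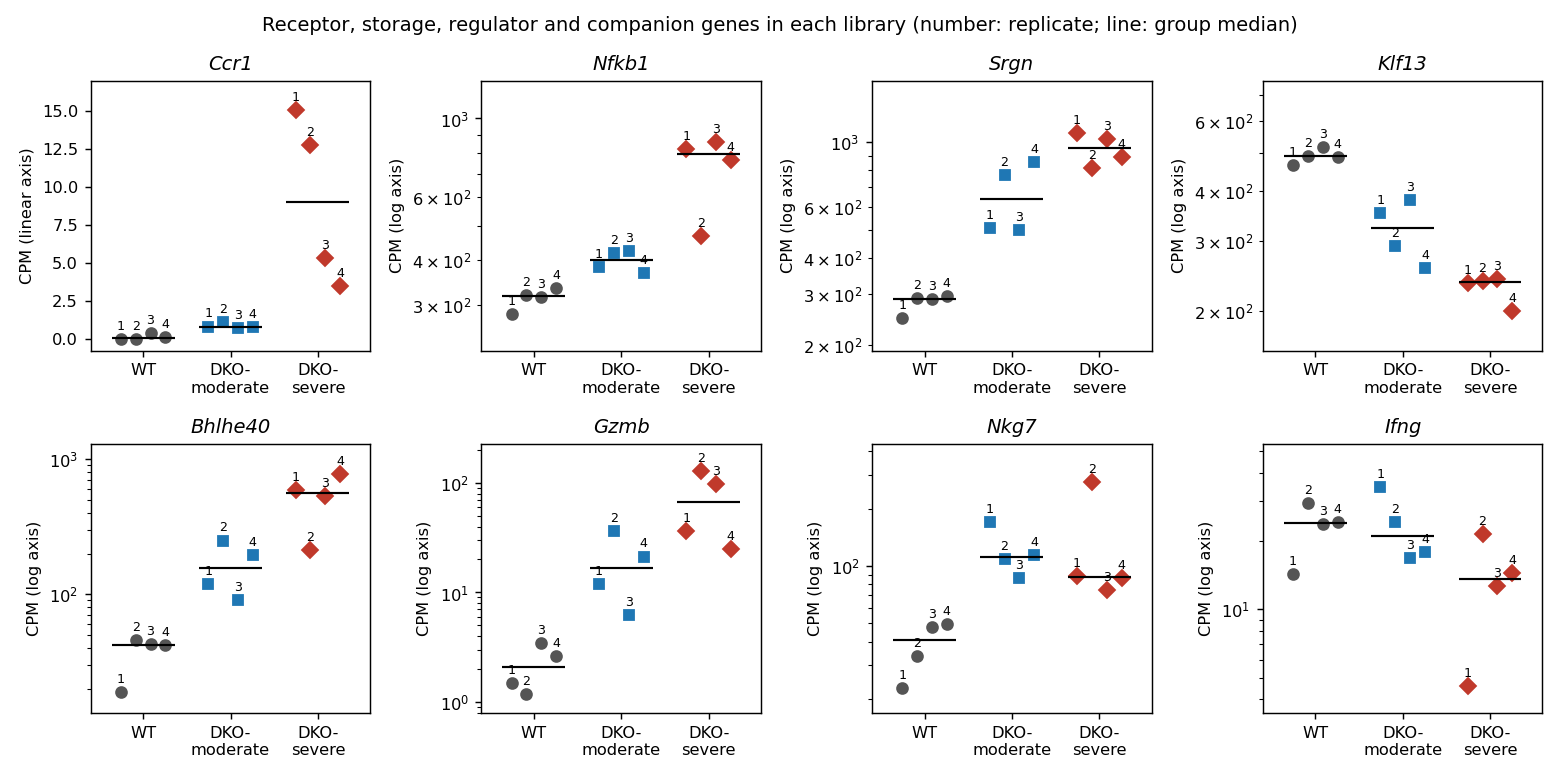
CPM of receptor, storage, regulator, and companion genes in each library (log axes, except a linear axis for *Ccr1*, which is at 0 in 2 libraries), with replicate numbers and group medians as lines. *Klf13* is lower and *Srgn*, *Bhlhe40*, *Nfkb1*, *Gzmb*, and *Nkg7* are higher in all DKO libraries than in all WT libraries, and *Nkg7* peaks in DKO-severe 2 at 277 CPM.

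Of 34 other chemokine ligand genes, 22 could be tested. In DKO-severe compared to WT 5 were called higher and 1 lower, shares below the 26.6% and 25.9% of all tested genes, with a median log2 fold change of 2.01, and the median was the same with the 3 genes that had 0 reads in WT set at their lower bound. *Cxcl5*, a neutrophil attractant, had 0 reads over the WT libraries, 32 over DKO-moderate, and 203 over DKO-severe, at least 62.9-fold higher in DKO-severe and at least 9.93-fold higher in DKO-moderate when 3 reads over the WT group are taken as the limit, which covers counting error only. *Cxcl3* had 1 read in WT and was at 0.681, 5.45, 1.17, and 0.622 CPM in DKO-severe 1 to 4, highest again in DKO-severe 2. *Ccl8*, a monocyte attractant, had 1 read in WT and was at 1.07, 0.548, 0.0714, and 0.144 CPM in DKO-severe 1 to 4 (edgeR adjusted p = 0.00378).

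The other 3 calls in DKO-severe compared to WT were less firm. *Cxcl13*, the B cell attractant of follicles, was at 0.0973, 0.913, 0.119, and 0.0479 CPM in DKO-severe 1 to 4 with 3 reads in WT (edgeR adjusted p = 0.0271) and was not called without WT 1, 2, or 4 or DKO-severe 2 (edgeR adjusted p = 0.0524 to 0.158). *Cxcl17* had 0 reads in WT and 14 in DKO-severe, at least 4.34-fold higher (edgeR adjusted p = 0.0321), and was not called when any of the WT libraries or DKO-severe 1 was left out (edgeR adjusted p = 0.0504 to 0.0615), in DESeq2 (adjusted p = 0.0726), or in limma voom (adjusted p = 0.103). *Ccl27a* was at 1.42 to 2.07 CPM in WT and 1.08 to 1.19 CPM in DKO-severe and fell by 0.57 (edgeR adjusted p = 0.0453), and the call was kept without WT 2 and lost without each other library (edgeR adjusted p = 0.0507 to 0.115).

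In DKO-moderate compared to WT, *Cxcl3* and *Cxcl5* were the 2 ligand genes called higher of the 22, where 12.3% of all tested genes were, with a median log2 fold change of 0.78 over the 22 and of 0.79 with genes at 0 reads in WT set at their bound. The call of *Cxcl3* (edgeR adjusted p = 0.0154) was lost without WT 1 (edgeR adjusted p = 0.0525). In DKO-severe compared to DKO-moderate, 3 were called higher (median 1.21) beside 9.41% of all tested genes, *Cxcl3* by 2.74, *Cxcl5* by 2.71, and *Ccl8* by 3.32 (edgeR adjusted p = 0.0290, 0.0166, and 0.0415). *Cxcl3* was not called without DKO-moderate 1 or 3 or DKO-severe 2 (edgeR adjusted p = 0.0814 to 0.0955), *Cxcl5* not without DKO-moderate 1 (0.0542), and *Ccl8* not without any of the WT libraries, DKO-moderate 1, 3, or 4, or DKO-severe 1 or 2 (0.0510 to 0.135).

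In DKO-severe compared to DKO-moderate, 9.41% of all tested genes were called higher and 10.7% lower. Of 4 receptor genes tested, 2 were called higher, *Ccr1* by 3.45 and *Ccbp2* by 4.13 (edgeR adjusted p = 0.0106 and 0.0368). Of 2 storage and cleavage genes, *Srgn* was higher by 0.54 (edgeR adjusted p = 0.0451). Of 10 regulator genes, *Bhlhe40* and *Nfkb1* were higher by 1.69 and 0.87 (edgeR adjusted p = 0.0161 and 0.00536), and *Klf13* was lower with a difference of -0.49 (edgeR adjusted p = 0.0151). Of 9 type 1 and cytotoxic genes, *Gzmb* was higher by 1.93 (edgeR adjusted p = 0.0390). Leaving out 1 library ended the call of *Bhlhe40* (DKO-moderate 1, edgeR adjusted p = 0.0533), *Klf13* (DKO-severe 4, 0.0607), *Ccbp2* (DKO-moderate 1, 3, or 4, or DKO-severe 3 or 4, 0.0621 to 0.0953), *Gzmb* (WT 4, DKO-moderate 1, 3, or 4, or DKO-severe 2 or 3, 0.0513 to 0.107), and *Srgn* (any WT library, DKO-moderate 1 or 3, or DKO-severe 1, 3, or 4, 0.0538 to 0.123).

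Genes with the pattern most like each member were sought among tested genes with a mean of at least 5 CPM, by Pearson r of log2 CPM over the 12 libraries. For *Ccl3* the first was *Ccl4* (0.981), followed by *Havcr2* (0.960), which encodes TIM-3, *Entpd1* (0.952), which encodes CD39, *Gas7* (0.931), and *Snx16* (0.929). For *Ccl4*, after *Ccl3*, they were *Entpd1* (0.978), *Havcr2* (0.963), *Snx16* (0.951), and *Serpinb9* (0.926), an inhibitor of granzyme B. For *Ccl5* they included *Klf9* (0.963), *Slamf7* (0.903), *Nedd4* (0.881), and *Nkg7* (0.880). For *Xcl1* they included *Anapc10* (0.927), 1810006K21Rik (0.884), *Derl2* (0.883), and *Id2* (0.879), none of which was among those of the other members.

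With the group means subtracted, *Havcr2* and *Entpd1* stayed among the first 5 for *Ccl3* (0.917 and 0.916) and *Ccl4* (0.940 and 0.955), and *Nkg7* joined them (0.922 for both). For *Ccl5*, *Klf9* was again first (0.950), with *Ccr2* (0.927), *Slamf7* (0.902), and *Nkg7* (0.876). For *Xcl1*, *Id2* (0.876) and *Penk* (0.875) were first. Likeness over 12 libraries with 1 far point is a description only.

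The promoters of *Ccl3* and *Xcl1*, the 2 of the 4 members that matched an entry of the promoter table used, are shown because TET proteins oxidize the methylcytosine of CpG sites. The 250 bases before each start are from RefSeq (GRCm38.p6), at chr11:83649379-83649628 and chr1:164935523-164935772, both on the minus strand, with matches to the RUNX core TGTGGT in capitals in both and the T-box core GGTGTGA in capitals in *Xcl1*, on either strand.
Ccl3: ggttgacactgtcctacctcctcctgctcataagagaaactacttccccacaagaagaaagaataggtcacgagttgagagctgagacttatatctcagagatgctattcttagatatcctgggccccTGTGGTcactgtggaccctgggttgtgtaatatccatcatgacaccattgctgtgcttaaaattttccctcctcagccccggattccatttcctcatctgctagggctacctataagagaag
Xcl1: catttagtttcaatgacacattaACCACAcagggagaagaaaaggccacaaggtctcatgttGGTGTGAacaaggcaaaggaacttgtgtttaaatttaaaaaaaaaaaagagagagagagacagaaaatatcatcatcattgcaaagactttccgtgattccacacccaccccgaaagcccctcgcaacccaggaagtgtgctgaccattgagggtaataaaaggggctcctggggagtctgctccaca

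*Ccl3* held 2 CpG sites and *Xcl1* held 3 in this window, against a median of 6 over 32851 promoters, of which 29.0% held no more than *Ccl3* and 37.8% no more than *Xcl1*. The RUNX core occurred once in each, and 14.0% of all promoters hold it. The T-box core occurred once in *Xcl1*, and 3.33% of all promoters hold it. The NFAT core GGAAA occurred 2 times in *Ccl3* and 1 time in *Xcl1* (55.6% of all promoters), and no match to the AP-1 core TGANTCA or to a kappaB motif was found in either. Methylation was not analysed here, and these matches are descriptions of the reference sequence.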

How the data were processed

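The deposited values are read counts per gene. Per the study's methods, the authors made strand-specific libraries, mapped them to mm10 with STAR (2.7.11 per the submitters' processing notes), discarded reads with more than 1 position, and ran htseq-count in reverse-stranded mode. The annotation behind the counts is not given in the sources used here. Records not assigned to a gene (18.5% to 23.7% of a library) were left out. Each library comes from 1 mouse. No 2 libraries of a group agreed within sampling noise.

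Genes with at least 10 reads over the libraries of a condition were tested in edgeR 4.0.16 (R 4.3.3), by its quasi-likelihood test on the 3 groups together with TMM scaling, Benjamini-Hochberg adjustment over all 16035 genes, and a threshold of 0.05. A standard error is the log2 fold change divided by the square root of F. A prior count of 2 entered log2 CPM. The exact permutation tests compared CPM two-sided, with adjustment over 12 tests. Alternatives were DESeq2 1.42.0, limma 3.58.1 voom with quality weights, other scalings and filters, the groups compared alone, a replicate block, terms for Y-linked, neutrophil and B cell, or CD8 genes, and leaving out each library. The tests were run on simulated counts first. Exon lengths and coordinates are from GENCODE vM21. Python 3.11.15 with pandas 2.3.3, scipy 1.17.1, Biopython 1.88, and matplotlib 3.10.9 made the remaining values and plots.

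Named genes are the 4 members, genes of the pathway lists that passed the threshold or have a described role, and per member the 5 genes with the highest r, apart from genes that are not reported here. Members, lists, and tests were chosen with earlier results of these data known. The motifs were chosen after the promoter sequences had been seen. *Trdc*, *Tcrg-C1*, and *Tcrg-C2* of the marker lists did not match a symbol in the files. Counts of the list genes of plasma cells, dendritic cells, platelets, and mast cells are given among the other observations.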

Additional observations from a re-analysis of the deposited data

Results flagged for a closer look

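In each group of 4 libraries, Dixon's test asked whether the highest or lowest library lies apart from the others. Of 114 groups of values tested, 25 were flagged. The nominal rate of 1 in 20 holds for independent, normally distributed values. It does not apply to these CPM values of the same libraries, so the flags are a description only. Those of *Ccl8* in WT 3 and *Cxcl3* in WT 2 rest on 1 read each, and that of *Ccbp2* in DKO-moderate 2 on 7 reads.

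DKO-severe 2 was the high library for *Ccl3* (168 CPM, next 15.8), *Ccl4* (138, next 10.9), *Ccl5* (332, next 96.1), and the sum of the 4 members (649, next 111). It was also the high library for the NK cell sum (120 CPM, of which *Eomes* was 99.4) and the B cell sum (267). The same held for *Nkg7* (277), *Cxcl3* (5.45), and *Cxcl13* (0.913), and it was the low library for *Csf2* (0.335). *Xcl1* was not flagged in any group.

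WT 3 was the high library of WT for the summed CPM of neutrophil (3.97), monocyte and macrophage (186), dendritic cell (10.3), B cell (163), plasma cell (88.2), and mast cell and basophil genes (0.604), and for *Gzma* (5.78) and *Ccl8* (0.0288). WT 1 was the low library for *Bhlhe40* (19.0 CPM), *Il2* (1.01), and *Srgn* (246).

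The remaining flags were *Cxcl3* in WT 2 (0.0323 CPM), *Ccbp2* in DKO-moderate 2 (0.221), and *Gzma* in DKO-moderate 2 (25.5) as high values and *Klf13* in DKO-severe 4 (199) as a low value.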

How the results depend on the processing

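With 4 mice a group and 1 library that carries most of the *Ccl3* and *Ccl4* reads, sizes are less certain than directions, and the lowest WT libraries held 11 to 23 reads of each. In DKO-severe compared to WT, leaving out 1 library gave 2.52 to 5.32 for *Ccl3*, 2.34 to 5.21 for *Ccl4*, 0.32 to 1.44 for *Ccl5*, and 0.36 to 0.76 for *Xcl1*, without a changed call. In DKO-moderate compared to WT the ranges were 1.30 to 2.41, 1.96 to 2.90, 0.70 to 1.26, and 0.95 to 1.39, where the *Xcl1* call was lost in 7 of 12 fits. In DKO-severe compared to DKO-moderate they were 0.76 to 3.37, 0.04 to 2.75, -0.66 to 0.45, and -0.79 to -0.38. The replicate numbers did not pair the mice (same-number residual r -0.27 to 0.21). With the replicate block, DKO-severe compared to WT gave 3.29 for *Ccl3* (edgeR adjusted p = 0.0540) and 3.22 for *Ccl4* (0.0542), not called, and *Ccl5* was at -0.10 in DKO-severe compared to DKO-moderate. The block changed no other call of the 4 members. Terms for neutrophil and B cell genes ended the calls of *Ccl3* (2.702) and *Ccl4* (2.54) in DKO-severe and of *Xcl1* in DKO-moderate (1.27, edgeR adjusted p = 0.0908), and turned *Ccl4* (-0.44), *Ccl5* (-0.77), and *Ccl8* (-0.0062) in DKO-severe compared to DKO-moderate. The neutrophil sums of DKO-severe overlapped those of neither WT nor DKO-moderate, so there this fit cannot tell the part of these genes from that of the group. The cause was not tested. The term for *Cd8a* and *Cd8b1* added *Ccl5* in DKO-severe (1.53, edgeR adjusted p = 0.0189) and *Ccl3* (3.53) and *Ccl4* (4.03) in DKO-moderate. It ended *Xcl1* in DKO-moderate (1.13) and turned *Ccl5* in DKO-severe compared to DKO-moderate (-0.24). *Cd8a* and *Cd8b1* did not overlap between WT and DKO-moderate, nor did *Cd8b1* between WT and DKO-severe. In these 2 comparisons this fit therefore cannot tell their part from that of the group. limma voom ended *Xcl1* in DKO-moderate (0.97, adjusted p = 0.0705) and turned *Ccl5* in DKO-severe compared to DKO-moderate (-0.15). The Y-linked term ended *Xcl1* in DKO-moderate (1.15). DESeq2 added *Ccl3* in DKO-severe compared to DKO-moderate (2.99). Without WT 3 and DKO-severe 1 and 2 together, chosen after seeing the data, *Ccl4* was added (2.90) and *Xcl1* lost (1.21, edgeR adjusted p = 0.0768) in DKO-moderate, and *Ccl4* (-0.20) and *Ccl5* (-0.59) turned in DKO-severe compared to DKO-moderate.

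*Eomes* turned in DKO-severe compared to DKO-moderate under voom (-0.60), the block (-0.16), the CD8 term (-0.0080), without 1 library (-0.76 without DKO-severe 2 to 0.68), and without the 3 libraries (-0.37), and *Ifng* in DKO-moderate without WT 1 (-0.14) or DKO-moderate 1 (-0.23, against up to 0.17 without another library). By library size alone the exact permutation test gave p = 0.0286 for *Ccl4* and *Xcl1* in DKO-severe and for *Ccl4* in DKO-moderate, 0.0686 adjusted. Genes called over all genes, 8428, 2734, and 3217 in the 3 comparisons, became 2308, 1669, and 137 with the neutrophil and B cell terms. They became 1705 in DKO-moderate with the CD8 term, 6126 in DKO-severe compared to DKO-moderate under voom, and 2055 there without the 3 libraries. Leaving out 1 library gave 7253 to 9006, 1616 to 2920, and 1646 to 3670, lowest in DKO-moderate without WT 1 (1616) or WT 2 (1707) and, in DKO-severe compared to DKO-moderate, without DKO-moderate 1 (1646) or 3 (1815) or DKO-severe 1 (1971), 3 (1997), or 4 (1989). By library size alone the median of all genes moved to 0.18 in DKO-severe compared to WT, and the share of calls that were higher went from 50.7% to 66.5% there and from 46.9% to 64.9% in DKO-severe compared to DKO-moderate (59.6% with DESeq2 size factors). DESeq2, voom, and the 2 scalings kept the calls of *Ccl3* and *Ccl4* in DKO-severe compared to WT.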

Other observations

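Marker genes of further cell types were summed in each library. Plasma cell genes summed to 0.575 to 88.2 CPM in WT, 2.44 to 24.8 in DKO-moderate, and 49.2 to 191 in DKO-severe, and dendritic cell genes to 0.776 to 10.3, 1.54 to 2.91, and 11.5 to 18.7 CPM. Mast cell and basophil genes summed to 0.0287 to 0.604, 0.213 to 14.0, and 0.762 to 6.94 CPM, and platelet genes to 1.91 to 2.19, 1.46 to 2.41, and 1.15 to 1.80 CPM. The 1 gene of the gamma-delta and innate-like T cell list found in the files was at 3.50 to 8.15, 8.61 to 11.2, and 5.06 to 12.4 CPM. Genes of CD8 T cells summed to 16.8 to 26.7, 3.13 to 8.52, and 1.03 to 13.1 CPM, and *Cd8b1* exceeded *Cd8a* in every library but DKO-severe 2.

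Among the B cell genes, *Pax5* was at 10.03, 10.9, 13, and 15.8 CPM in DKO-severe 1 to 4, although *Ms4a1* was at 0.167 and 0.0718 CPM in DKO-severe 3 and 4. In WT, *Pax5* was at 6.47 CPM in WT 3 and at 0 to 0.137 CPM in the other 3. The B cell sums of DKO-severe 3 and 4, 15.5 and 18.7 CPM, are therefore mostly *Pax5*. This gene was singled out after its values were seen.

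DKO-severe 2 also held the highest *Prf1* of the series, which encodes perforin, at 77.4 CPM against 5.78, 13.9, and 30.4 CPM in DKO-severe 1, 3, and 4, and the highest *Gzmk* at 18.5 CPM against 1.88 to 5.50 CPM. These 2 genes were called in no comparison by edgeR.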
